A study of Mus musculus with 8 samples.

Results

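The 9 scaffold genes of the postsynaptic density were followed in right fronto-parietal cortex of 16 mice: Dlg4, Dlgap1, Dlgap2, Dlgap3, Dlgap4, Shank1, Shank2, Shank3 and Homer1. Every array probe whose RefSeq accession maps to one of these symbols was taken, which gave 22 probes of 56605 and 9 of the 16852 named genes tested. The genes were chosen by family, but with earlier results of these arrays known: Dlgap3 was selected on its fitted lesion-by-genotype interaction, so its values are given as a description. Floxed mice were compared with mice deficient in microglia-derived Il6, here called Il6-deficient, and either genotype was studied as controls and after a cryolesion, with 4 animals in each of the 4 groups. A cryolesion is a local wound of the brain surface produced by cold, and the tissue was the cortex on the injured side. The labels give neither the promoter that drives the deletion, nor the age or sex of the animals, nor the time after the lesion.

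The postsynaptic density is the protein meshwork under the membrane of an excitatory synapse. Dlg4 encodes PSD-95, which holds glutamate receptors and their partners at the membrane. The Dlgap genes encode the SAPAP or GKAP adaptors that join PSD-95 to the Shank proteins, and the Shank proteins join those adaptors to Homer and to the actin of the spine. Homer1 encodes a protein that binds group I metabotropic glutamate receptors, and a short form of it is induced by neuronal activity. Dlgap3, also called SAPAP3, is best known from the striatum, where its loss in mice leads to excessive grooming.

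Each array compared 2 animals, one labelled with Cy5 and one with Cy3, and the 8 arrays formed a loop with 4 sides of 2 dye-swapped arrays. The control side set Il6-deficient controls against floxed controls, and the lesion side set cryolesioned Il6-deficient against cryolesioned floxed animals. The floxed-lesion side set cryolesioned floxed animals against Il6-deficient controls, and the deficient-lesion side set cryolesioned Il6-deficient animals against floxed controls. No array held a cryolesioned and a control animal of the same genotype, so each effect of the lesion was reached by way of the other genotype. The arrays shared 1 slide and 1 scan. Per channel, 59.2% to 65.9% of probes passed the scanner's call of well above background, and 0 spots were saturated. Of the 22 scaffold probes, 21 were well above background in all 16 animals and a second, dimmer Dlgap4 probe in 15. All 15 general neuron markers and all 10 measured cortical layer markers were well above background in all 16 animals, and so were 13 of 15 striatal markers, so detection does not set cortex apart from striatum. Xist, transcribed in females, was detected in 3 floxed controls, in 1 control lacking microglial Il6 and in 0 cryolesioned animals, so the share of females moved with the lesion. 

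The upstream windows of 3 genes are shown because they belong to the gene that changed in both genotypes (Dlgap1), the gene at the centre of the set (Dlgap3) and the gene with an activity-induced form (Homer1). Each runs over the 250 bases before a RefSeq transcript start, 5′ to 3′ on the plus strand of GRCm38.p6. RefSeq windows were at hand for 6 of the 9 genes. Capitals mark the letters TGACGT or their reverse complement ACGTCA, a half-site of the cyclic AMP response element.
Dlgap1, chr17:69968823-69969072: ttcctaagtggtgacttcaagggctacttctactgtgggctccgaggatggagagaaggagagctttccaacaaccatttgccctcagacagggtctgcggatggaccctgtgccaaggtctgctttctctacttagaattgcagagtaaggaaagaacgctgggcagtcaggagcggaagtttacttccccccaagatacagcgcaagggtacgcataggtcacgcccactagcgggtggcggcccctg
Dlgap3, chr4:127172630-127172879: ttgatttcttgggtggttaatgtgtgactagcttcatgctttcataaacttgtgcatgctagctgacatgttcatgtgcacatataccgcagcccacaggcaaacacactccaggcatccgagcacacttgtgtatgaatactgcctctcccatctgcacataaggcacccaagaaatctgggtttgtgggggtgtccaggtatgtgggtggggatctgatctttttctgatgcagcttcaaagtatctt
Homer1, chr13:93303507-93303756: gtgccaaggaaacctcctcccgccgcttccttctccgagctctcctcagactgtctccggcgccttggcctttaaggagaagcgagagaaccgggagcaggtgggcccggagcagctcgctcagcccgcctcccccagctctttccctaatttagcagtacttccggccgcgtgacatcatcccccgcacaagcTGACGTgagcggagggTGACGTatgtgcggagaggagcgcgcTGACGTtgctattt
This Homer1 window held 3 matches, and the Dlgap1 and Dlgap3 windows held 0. Homer1 and Dlgap1 each have 1 further RefSeq window at another start, not printed, and both held 0 of these letters. The Homer1 window and this motif were chosen for display with their matches known. Of all 32851 RefSeq windows of this length, 6.47% held at least 1 match on either strand and 0.152% held 3 or more. In all 3 motifs were searched on both strands. The E-box CACGTG matched in 6.02% and the GC box GGGCGG in 32.7% of all windows, and the 3 windows shown held 0 of either, while the further Dlgap1 window held 1 CACGTG. A match is a description of the letters and not a measured site. The Dlgap1 window ends just before the first base of the gene's RefSeq model (chromosome 17, 69969073 to 70821413). The Dlgap3 window lies inside its gene model (chromosome 4, 127168305 to 127237022), before an internal transcript start.

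After the lesion Dlgap1 fell in both genotypes, and the other scaffold genes also had fitted changes below 0 in floxed mice. There Dlgap3 (-1.01 ± 0.09, SE) lay near Dlgap1 (-1.07 ± 0.14), and the rest were closer to 0. In floxed animals the fitted change was below 0 for 9 of 9 scaffold genes, where 52.1% of all 29362 features tested were below 0. Their median fitted log2 change was -0.39, beside -0.01 for all features. Of the 8 genes other than Dlgap3, limma called 1 lower in this contrast, Dlgap1, at a Benjamini-Hochberg adjusted p under 0.05, where 1.19% of all features were called lower. Dlgap3 was selected on its lesion-by-genotype interaction, which contains this contrast, so no call is given for it. The levels of Dlgap1 did not overlap between the groups, and 7.92% of all features lay lower without overlap. Those of Dlgap3 did not overlap either, which is given as a description only. In Il6-deficient animals 6 of 9 were below 0 (51.9% of all features), the median was -0.12 beside -0.01, and Dlgap1 was the 1 gene called lower, against 1.07% of all features. By group means of the levels, 8 of 9 scaffold genes were lower after the lesion in either genotype, with median differences of -0.31 in floxed and -0.30 in Il6-deficient mice. In bulk tissue, fewer cells of a type and less RNA per cell cannot be told apart.

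Dlgap1 encodes the adaptor also called GKAP. Its log2 intensity, the level used throughout, was 13.41, 12.92, 13.22 and 13.36 in the floxed controls and 13.39, 13.83, 13.71 and 13.57 in the Il6-deficient controls. After the lesion it was 12.23, 12.43, 12.58 and 12.57 in floxed animals and 12.84, 13.49, 12.73 and 12.46 in Il6-deficient animals. All cryolesioned floxed animals lay below all floxed controls, while the cryolesioned Il6-deficient animal 2 reached into the range of its controls. In floxed mice Dlgap1 fell by 1.07 ± 0.14 on the log2 scale (SE, 16 animals on 8 arrays; 95% interval -1.41 to -0.74; limma adjusted p = 0.0165), or 2.1-fold. In Il6-deficient mice it fell by 0.93 ± 0.14 (interval -1.26 to -0.59; limma adjusted p = 0.0275), or 1.9-fold.

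All 3 Dlgap1 probes were lower in both genotypes. The changes ran from -1.07 to -0.58 in floxed and from -0.93 to -0.50 in Il6-deficient animals, with the brightest probe, used above, showing the largest change. With the 3 probes averaged, the changes were -0.79 and -0.65. With sex as a term in the fit, taken from Xist, they were -0.94 and -0.79 and still called by limma (adjusted p = 0.0217 and 0.0327). The direction held whichever single array was omitted, but the call rested on several of them. For Dlgap1 in floxed animals limma's adjusted p was 0.0848 without the first control-side array and 0.0959 without lesion-side array 2. It was 0.0766 with deficient-lesion array 2 left out. In Il6-deficient animals the adjusted p was 0.0529 to 0.107 without any one of the same 3 arrays, either floxed-lesion array or lesion-side array 1. Without any one of these arrays limma also called fewer of all features. They numbered 57 to 168 in floxed animals, against 896 in the main fit. In Il6-deficient animals they numbered 37 to 253, against 803.

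**Figure D1:**
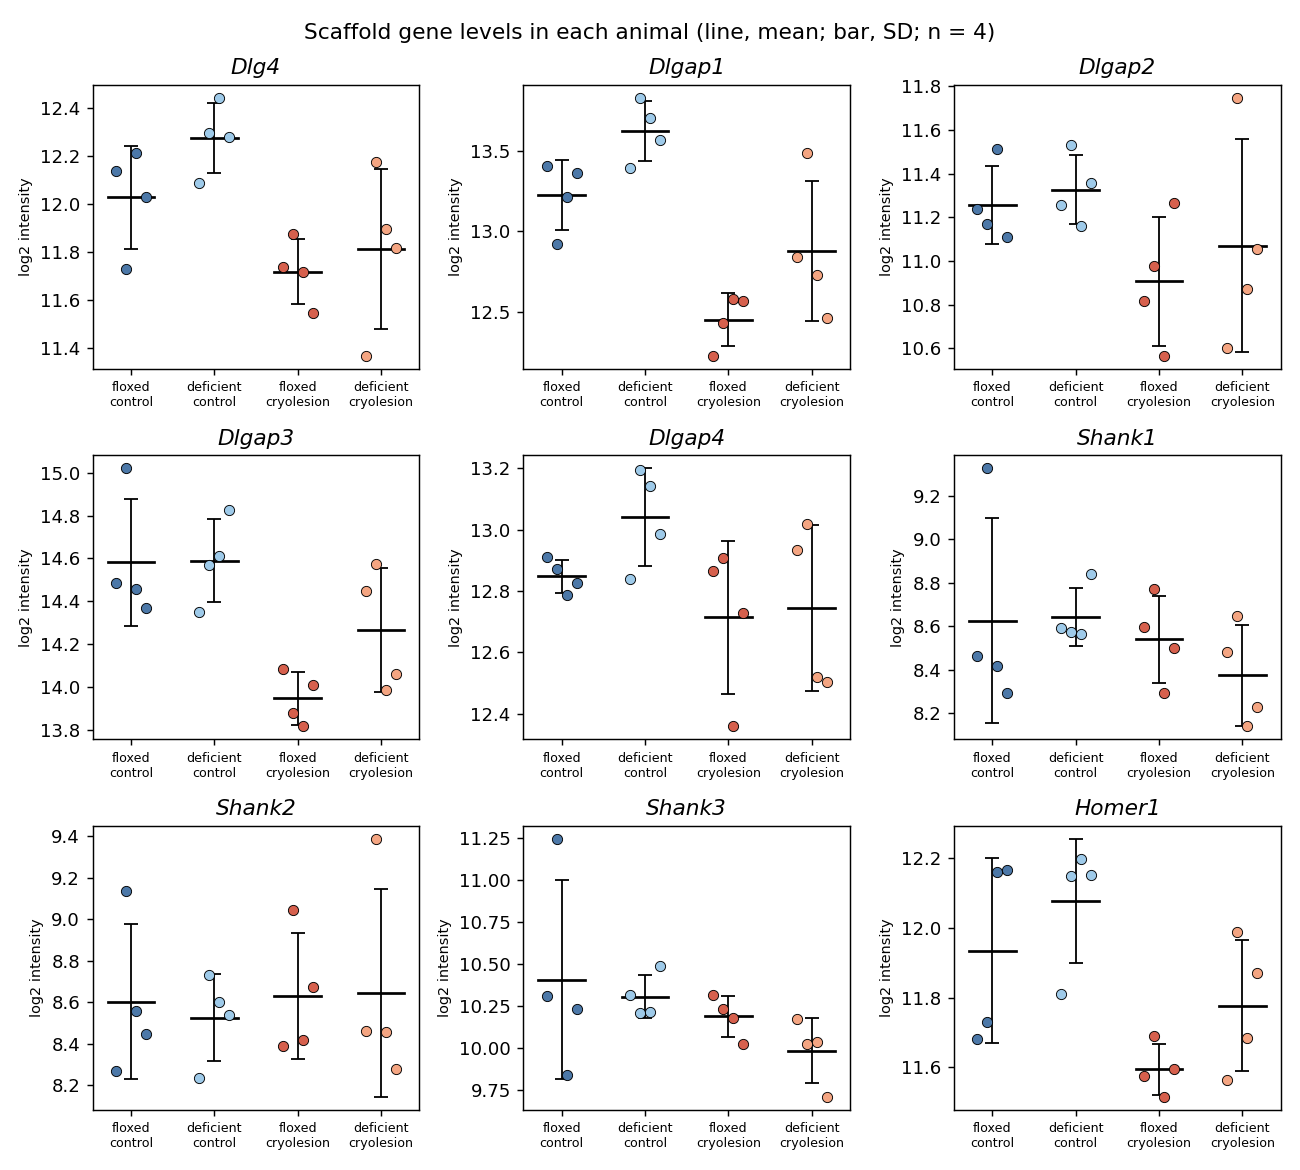
Log2 intensity (y axis) of the brightest probe of each scaffold gene in each of the 16 animals by group (x axis); points are animals, lines are means and bars are SD (n = 4 a group). Dlgap1 and Dlgap3 of the cryolesioned floxed animals lie below every floxed control, and 1 floxed control stands high for Shank1, Shank2, Shank3 and Dlgap3.

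Of the 9 genes, Dlgap3 had the largest fitted difference between the genotypes in its response to the lesion. Its level was 14.48, 15.02, 14.46 and 14.37 in floxed controls and 14.35, 14.57, 14.61 and 14.82 in Il6-deficient controls. After the lesion it was 14.08, 13.88, 13.82 and 14.01 in floxed animals and 14.45, 14.57, 13.99 and 14.06 in Il6-deficient animals. The cryolesioned floxed animals lay together below all controls, whereas the cryolesioned Il6-deficient animals split into a pair within the control range and a pair within the range of the cryolesioned floxed animals. The higher pair, at 14.45 and 14.57, was hybridised on the lesion side and the lower pair on the deficient-lesion side. The fitted change was -1.01 ± 0.09 (SE) for floxed and -0.12 ± 0.09 for Il6-deficient mice, a difference of 0.89 ± 0.13. These values come from the contrasts by which the gene was chosen, and no test is attached to them. Over all features, 0 were called for the interaction at an adjusted p under 0.05 in limma, and 972 (3.31%) had an unadjusted p under 0.05.

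The 4 direct ratios that carry this difference were all on 1 side of 0 within their side. Il6-deficient over floxed was -0.13 and -0.45 on the control side and 0.63 and 0.56 on the lesion side. In this loop the interaction equals the mean of the lesion side less the mean of the control side, so it rests on 4 arrays and 8 of the 16 animals. The other sides gave -0.53 and -0.95 for cryolesioned floxed over Il6-deficient control, and -0.47 and -0.31 for cryolesioned Il6-deficient over floxed control. On these 2 sides every cryolesioned animal was lower than the control animal on its array.

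The size of the Dlgap3 difference depended on whether arrays were compared with each other. From group means of the levels, which also use intensity between arrays, the change was -0.63 for floxed and -0.32 for Il6-deficient mice and the difference 0.31. The fit on separate channels gave an interaction of 0.45, and median centring in place of loess gave 0.69. Leaving out any 1 array gave 0.81 to 0.99. Only 1 probe read Dlgap3, so no second probe bears on it.

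**Figure D2:**
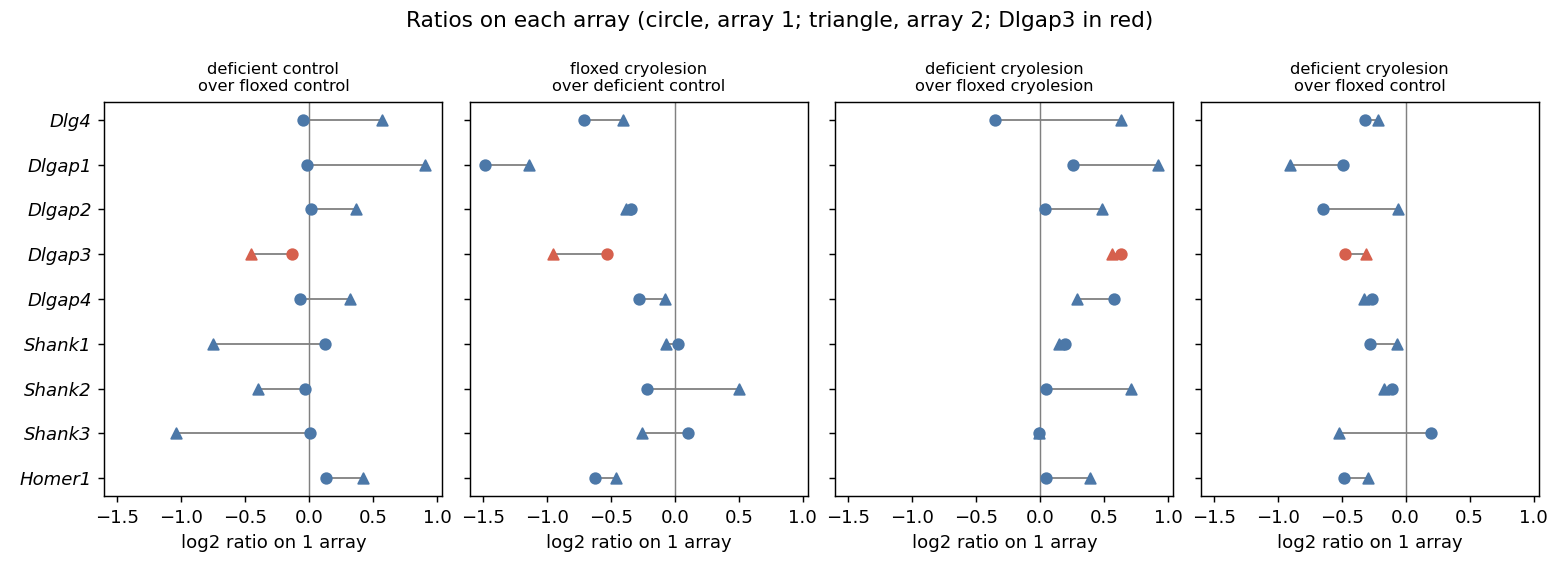
Log2 ratio on each array (x axis) for the 9 scaffold genes (y axis), 1 panel per side of the loop; each point is 1 array with 2 animals, circles are array 1, triangles array 2, and Dlgap3 is red. Dlgap3 lies below 0 on both control-side arrays and above 0 on both lesion-side arrays, at 0.63 and 0.56.

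The Shank genes encode the large scaffolds between the SAPAP adaptors and Homer, and they stood apart from Dlgap1. Their fitted changes in floxed animals were -0.34 ± 0.15 for Shank1, -0.29 ± 0.21 for Shank2 and -0.37 ± 0.27 for Shank3 (SE). In Il6-deficient animals they were 0.15 ± 0.15, 0.30 ± 0.21 and 0.14 ± 0.27. None passed the test in either genotype, with limma adjusted p from 0.275 to 0.842. The direction in Il6-deficient animals depended on the scale for Shank1 and Shank3, whose group mean levels differed by -0.27 and -0.32 where the fitted changes were above 0. In the separate-channel fit Shank1 was at -0.17 and Shank3 at -0.21. All 8 Shank probes had fitted ratios below 0 in floxed and above 0 in Il6-deficient animals, but probes of a gene share the same animals.

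Shank3 turned on 1 animal. Its level was 10.31, 11.24, 9.84 and 10.23 in floxed controls and 10.32, 10.21, 10.21 and 10.48 in Il6-deficient controls. After the lesion it was 10.31, 10.23, 10.18 and 10.02 in floxed animals and 10.17, 10.02, 10.03 and 9.71 in Il6-deficient animals. The floxed control 2, at 11.24, stood above every other animal. Its array gave an Il6-deficient over floxed ratio of -1.04, while the other control-side array gave 0.01 and both lesion-side arrays gave -0.01. Without that array the Shank3 interaction went from 0.51 ± 0.38 (SE) to -0.04 and its fitted change in Il6-deficient animals from 0.14 to -0.14. Xist was well above background in 3 of the 4 floxed controls and the Y-linked Ddx3y in 1. In Il6-deficient controls Xist was so in 1 and Ddx3y in 3. Xist and 4 Y-linked genes (Ddx3y, Eif2s3y, Kdm5d and Uty) were averaged, so males have the higher mean. The mean log2 level of these 5 sex-linked genes was 7.49 in floxed control 2 and 6.08 to 6.45 in the other floxed controls. It was 6.35 in its array partner, Il6-deficient control 2, and 7.51 to 7.67 in the other Il6-deficient controls. A sex term and the omission of this array span the same model, so the part of sex was not tested. By levels the 4 cryolesioned Il6-deficient animals lay below the 4 Il6-deficient controls, as 10.6% of all features did in that direction, although the fitted change was above 0.

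The same floxed control 2 was highest of its group for Shank1 (9.33, against 8.29 to 8.46 in the other floxed controls) and Shank2 (9.13, against 8.27 to 8.56). Without its array the interaction went from 0.48 to 0.20 for Shank1 and from 0.60 to 0.39 for Shank2. The part of sex in this array was not tested for these genes either. For Shank2 the cryolesioned Il6-deficient animal 2, at 9.39, stood above the other animals of its group at 8.28 to 8.46. The Shank2 ratios of Il6-deficient over floxed were -0.04 and -0.40 on the control side and 0.05 and 0.71 on the lesion side. A single array on each side therefore held most of its difference between the genotypes.

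Homer1 and Dlg4 had fitted changes below 0 in both genotypes that did not pass the test. Homer1 was 11.68, 11.73, 12.16 and 12.16 in floxed controls and 11.58, 11.69, 11.52 and 11.59 in cryolesioned floxed animals, which overlapped by a narrow margin. In Il6-deficient animals it was 11.81, 12.15, 12.20 and 12.15 before and 11.57, 11.99, 11.68 and 11.87 after the lesion. The fitted Homer1 change was -0.44 ± 0.13 (SE; interval -0.74 to -0.13; limma adjusted p = 0.127) in floxed and -0.49 ± 0.13 (interval -0.79 to -0.19; limma adjusted p = 0.106) in Il6-deficient animals. All 3 Homer1 probes, each named for another RefSeq transcript, were below 0 in both genotypes, from -0.63 to -0.14 in floxed and from -0.54 to -0.36 in Il6-deficient animals.

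Dlg4, the receptor anchor, was 12.14, 11.73, 12.22 and 12.03 in floxed controls and 11.74, 11.88, 11.72 and 11.54 after the lesion. In Il6-deficient animals it was 12.09, 12.30, 12.44 and 12.28 before and 11.37, 12.18, 11.90 and 11.82 after. The ranges overlapped in both genotypes. Its fitted change was -0.35 ± 0.17 (SE; limma adjusted p = 0.318) and -0.47 ± 0.17 (limma adjusted p = 0.206). Of 19 alternatives, 1 called Dlg4 in Il6-deficient animals, the fit on separate channels at -0.45 (limma adjusted p = 0.0346). In this contrast that fit called 3134 of all features, against 803 in the main fit, so more calls were not particular to Dlg4. With the replicate block that fit did not call Dlg4 (-0.43, limma adjusted p = 0.0573). Its 2 dimmer probes were at -0.24 and -0.11 in floxed animals and at -0.10 and 0.08 in Il6-deficient animals, so the probes did not share a direction there.

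Dlgap2 and Dlgap4, the other adaptors, did not pass the test in either genotype. Dlgap2 was at -0.39 ± 0.19 (SE) for floxed and -0.32 ± 0.19 for Il6-deficient mice. The second Dlgap2 probe was closer to 0, at -0.07 and -0.09. Dlgap4, the broadly expressed member, was at -0.39 ± 0.18 and -0.08 ± 0.18. The second Dlgap4 probe was at 0.00 in floxed animals (-9e-04) and -0.09 in Il6-deficient animals, so its probes differed in size in floxed animals.

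**Figure D3:**
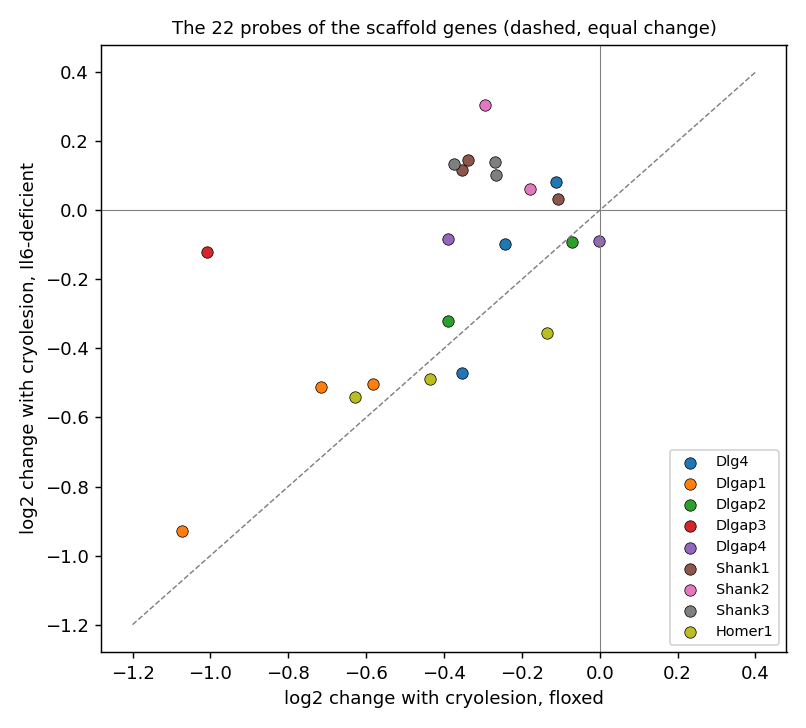
Fitted log2 change with cryolesion in floxed (x axis) and Il6-deficient animals (y axis) for the 22 scaffold probes; each point is a probe, coloured by gene, and the dashed line marks equal change. Dlgap1 lies near the line at its lower left end, the 8 Shank probes lie above 0 on the y axis, and Dlgap3 lies at -1.01 and -0.12.

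Between the genotypes, limma called 0 of 9 scaffold genes in controls and 0 of 9 after the lesion, as it called 0% of all features in both. At an unadjusted p under 0.05 there were 1299 features (4.42%) in controls and 2529 (8.61%) after the lesion. After the lesion 0 of 9 fitted values were below 0, where 47% of all features were, and the median was 0.17 beside 0.01. This count depended on the ratio fit, since by group mean levels Shank1 and Shank3 were lower in the cryolesioned Il6-deficient than in the cryolesioned floxed animals, by differences of -0.16 and -0.20. Dlgap1 was at 0.48 ± 0.12 (SE; interval 0.19 to 0.78; limma adjusted p = 0.563), and its lesion-side ratios were 0.26 and 0.92. Dlgap3 was at 0.61 ± 0.08. In controls 5 of 9 were below 0 (45.9% of all features), from -0.41 ± 0.23 for Shank3 to 0.34 ± 0.12 for Dlgap1. The lesion and genotype contrasts share animals, so their values are set side by side and not compared.

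**Figure D4:**
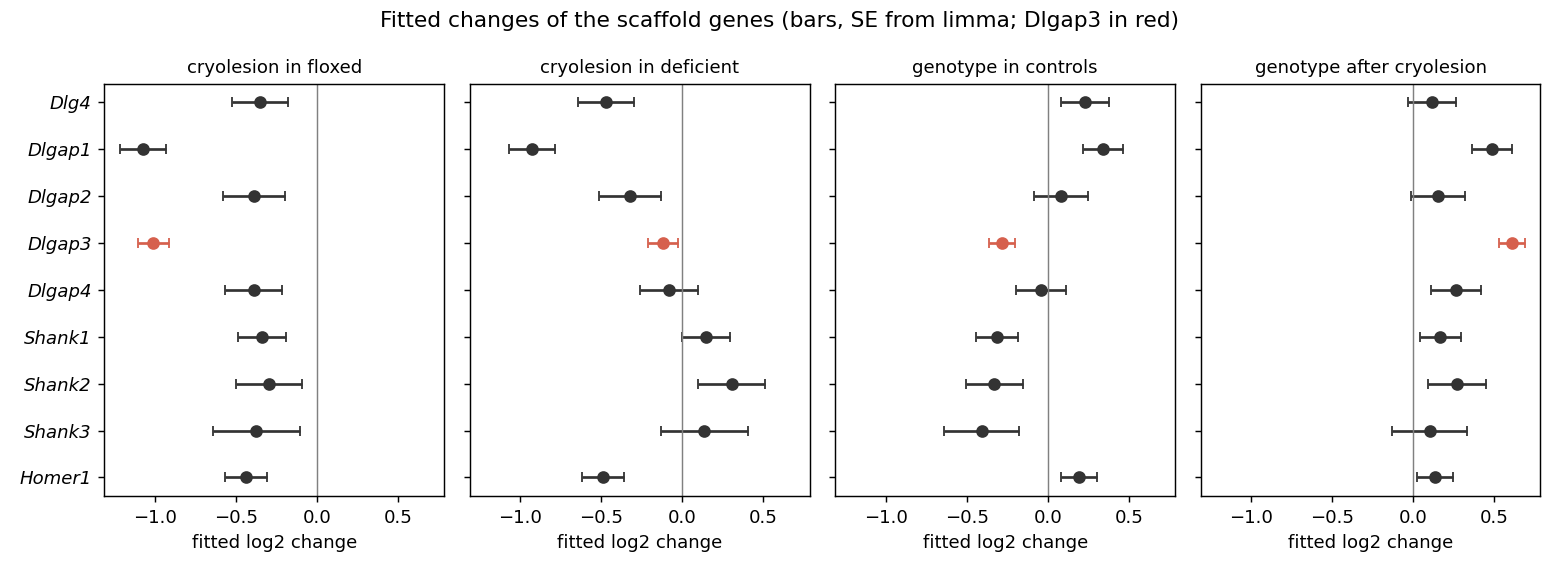
Fitted log2 change (x axis) with its SE for each scaffold gene (y axis) in the 4 contrasts, from limma on 8 arrays; Dlgap3 is red. In floxed animals 9 of 9 points lie below 0, in Il6-deficient animals 6 of 9, and for genotype after the lesion all lie above 0.

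The lists of other synaptic genes also had medians below 0 after the lesion. Of 27 further scaffold genes of the density, 24 were below 0 in floxed animals (median -0.48) and 3 fell, namely Sipa1l1, a spine regulator (-0.84 ± 0.10), Begain, a PSD-95 partner (-0.64 ± 0.13), and Cnksr2 (-0.62 ± 0.11), with limma adjusted p of 0.0122, 0.0489 and 0.0342. In Il6-deficient animals 19 were below 0 (median -0.15) and 2 fell, Lin7a (-0.79 ± 0.14, limma adjusted p = 0.043) and Sipa1l1 (-0.66 ± 0.10, limma adjusted p = 0.0266). The list of 23 signalling proteins of the density held 8 genes that fell and 1 that rose in floxed animals. Among them were Kalrn, an exchange factor of spines (-1.42 ± 0.23), Itpka, an inositol kinase of spines (-1.37 ± 0.13), and the activity-induced gene Arc, which rose by 1.75 ± 0.20. In Il6-deficient animals 4 of these 23 fell and 0 rose, with Itpka at -1.61 ± 0.13, Kalrn at -1.54 ± 0.23 and the calcium channel gene Itpr1 at -0.77 ± 0.15.

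Of 25 glutamate receptor genes, 2 fell in floxed animals, the AMPA receptor subunit Gria4 (-0.74 ± 0.10) and Cacng3, an AMPA receptor auxiliary subunit (-0.70 ± 0.13), and Gria4 alone fell in Il6-deficient animals (-0.54 ± 0.10). Of 22 presynaptic genes, Stx1a, a syntaxin of vesicle fusion, fell by 1.36 ± 0.08 in floxed and by 1.22 ± 0.08 in Il6-deficient animals. The active zone scaffold Bsn fell by 0.69 ± 0.10 in floxed animals. The medians of these lists were -0.53 and -0.63 in floxed and -0.32 and -0.42 in Il6-deficient animals. The scaffold genes, at -0.39 and -0.12, were thus no further from 0 than the lists of their partners.

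Markers of neurons and of other cells moved with the same contrasts. Of 15 general neuron markers 14 were below 0 in each genotype, with medians of -0.38 and -0.36. Map2, of dendrites, fell in floxed animals (-0.59 ± 0.11) and 0 markers passed in Il6-deficient animals. Of the 10 measured cortical layer markers 9 were below 0 in each genotype, and Lamp5 (-1.23 ± 0.22 and -1.49 ± 0.22) and Tbr1 (-0.89 ± 0.18 and -1.07 ± 0.18) fell in both. Etv1, a marker of deep-layer neurons, fell in Il6-deficient animals (-1.19 ± 0.19) and was at -0.17 ± 0.19 in floxed animals. The summed level of the neuron list, as the mean log2 intensity, ran from 13.64 to 14.16 in floxed controls and from 13.52 to 14.01 in cryolesioned floxed animals. In Il6-deficient animals it ran from 14.14 to 14.30 in controls and from 13.67 to 14.06 after the lesion.

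The astrocyte list moved in both directions. Of its 12 genes, 8 were below 0 in floxed and 6 in Il6-deficient animals, and 2 rose and 2 fell in each. Gfap, the filament of reactive astrocytes, rose by 3.50 ± 0.26 in floxed and 3.65 ± 0.26 in Il6-deficient mice, and Vim, another filament, by 2.77 ± 0.21 and 2.59 ± 0.21. The metabolic genes Aldoc (-1.06 ± 0.10 and -0.65 ± 0.10) and Glul (-1.04 ± 0.14 and -0.93 ± 0.14) fell.

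Of 12 microglia and macrophage markers, 8 were above 0 in each genotype, and 3 rose and 0 fell. Those were the lysosomal marker Cd68 (1.39 ± 0.19 and 1.52 ± 0.19) and the complement genes C1qb (0.86 ± 0.11 and 1.12 ± 0.11) and C1qa (0.61 ± 0.12 and 0.96 ± 0.12). P2ry12, a receptor of resting microglia named here after its values were seen, was lowest of the list at -1.64 ± 0.36 and -1.30 ± 0.36 without passing. Of 20 activity-regulated genes, 16 were above 0 in floxed animals (median 0.62) and 9 in Il6-deficient animals (median -0.07). Fos rose in floxed animals (2.00 ± 0.39) and was at 0.93 ± 0.39 in the other genotype, where Egr1 fell (-1.33 ± 0.25).

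The inhibitory neuron list had 10 of 12 below 0 in each genotype, with Kcnc1 lower in floxed animals (-0.74 ± 0.14). The oligodendrocyte list had 10 and 11 of 12 below 0 and 0 that passed, with Cnp at -0.71 ± 0.42 in floxed animals. Of 12 vessel markers, 8 were below 0 in floxed and 5 in Il6-deficient animals. The smooth muscle gene Tagln rose by 2.44 ± 0.24 and 1.91 ± 0.24. The transporter gene Abcb1a (-0.85 ± 0.10) and Vtn (-0.65 ± 0.09) fell in floxed animals, and were at -0.46 ± 0.10 and -0.23 ± 0.09 in Il6-deficient animals. The part of cell makeup in the scaffold changes was not tested.

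Striatal markers were read because Dlgap3 is known from the striatum, and a cortical dissection can hold striatum. Of 15 such genes, 13 were well above background in all 16 animals and 0 passed in any contrast. For genotype after the lesion 14 of 15 were below 0 (median -0.68), whereas Dlgap3 was at 0.61. The values were -1.34 for Penk, -1.25 for Tac1, -0.96 for Pdyn, -0.75 for Drd1 and Pde10a, -0.69 for Rgs9 and -0.68 for Rarb. Further values were -0.65 for Gng7, -0.59 for Ido1, -0.55 for Isl1, -0.53 for Adora2a, -0.21 for Drd2, 0.00 for Foxp1 (-0.0032) and 0.29 for Ppp1r1b. The mean level of the list spread most among the cryolesioned animals, from 9.61 to 11.45 in floxed and from 9.69 to 11.65 in Il6-deficient animals, against 11.06 to 11.75 in floxed and a median of 10.59 in Il6-deficient controls. Among the cryolesioned Il6-deficient animals it was 9.69 and 9.70 in the pair on the lesion side, where Dlgap3 was high, and 11.65 and 11.58 in the pair on the deficient-lesion side, where Dlgap3 was low. The cryolesioned floxed partners on the lesion side were at 11.45 and 10.88. The part of striatal tissue in the Dlgap3 difference was not tested. Over the 16 animals Dlgap3 and this mean had a Pearson r of -0.08.

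**Figure D5:**
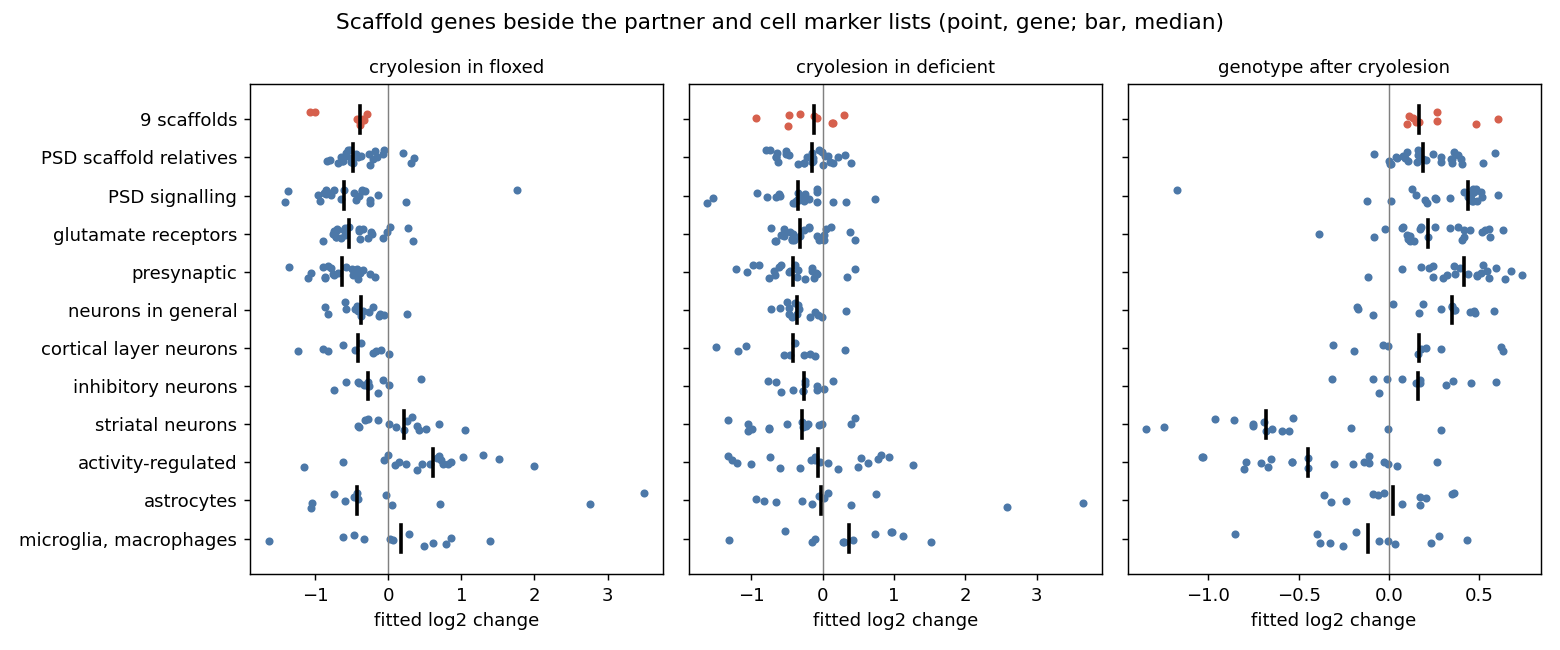
Fitted log2 change (x axis) of the 9 scaffold genes (red) and of the genes of 11 partner and marker lists (blue) in 3 contrasts; points are genes and black bars are list medians. The scaffold median lies at -0.39 in floxed and -0.12 in Il6-deficient animals, and the striatal list lies at -0.68 for genotype after the lesion.

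Among themselves the scaffold genes fell into loose sets over the 16 animals, as a description of levels that share arrays and groups. Over the 36 pairs Pearson r ran from -0.11 to 0.83, with a median of 0.51. The highest pairs were Shank1 with Shank3 (0.83), Dlg4 with Homer1 (0.83) and Dlg4 with Dlgap1 (0.80). With the group means taken off, these were 0.81, 0.65 and 0.50. Dlgap3 lay nearer to Shank1 than to Dlg4 once the group means were taken off, at 0.85 and -0.21. The Shank pairs and these Dlgap3 values include floxed control 2, which was highest of its group for Dlgap3 (15.02) and Shank1 (9.33). It was lowest of its group for Dlg4 (11.73), and values without this animal are not given.

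Of 16840 other named genes, those whose level followed Dlgap3 most closely over the 16 animals were Snph (r = 0.95), a syntaxin-binding protein, Ppp1r9b (0.95), the spine protein spinophilin, Fbxo41 (0.93), Bsn (0.92) and Wsb2 (0.92). For the median of the 9 scaffold genes they were Btbd8 (0.89), Adcy1 (0.88), Il1rapl2 (0.87), Fzd3 (0.87) and Osbpl1a (0.87). Dlgap1 had an r of 0.92 with the mean of the 27 further scaffold genes and 0.90 with the cortical layer markers, and Dlgap3 had 0.80 and 0.71. Shank3, by contrast, had 0.19 and 0.17.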

How the data were processed

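Total RNA of 16 mice was hybridised in pairs to 8 Agilent 2-colour arrays, with 4 numbered animals to a group in the labels. Per the submitters' processing notes the arrays were read with Agilent Feature Extraction 10.7.3.1. The authors deposited median spot and background intensity for both channels, processed intensity, a log10 ratio of red over green, and a table of log2 ratios whose scaling is not stated and which correlated at 0.966 to 0.977 with the loess ratios used here (column medians -0.0045 to 0.0050). Only the authors' log10 ratio column set the direction of that table.

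Median intensities were corrected with normexp (offset 50) and normalized by loess within arrays. Outlier spots (115 to 194 per array) were left out. Probes well above background in at least 4 of 16 channels were kept (37352), and the brightest probe of a gene was used, which gave 29362 features. Of 56605 probes, 32994 were named through RefSeq accessions without version (GRCm38.p6). Ratios were fitted with limma 3.58.1 in R 4.3.3 with a dye intercept (4 residual degrees of freedom, prior 2.95), and p-values were adjusted over all features. Levels are log2 intensities after loess and Aquantile. The fitting was tested on simulated data.

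The scaffold genes and all gene lists were chosen with earlier results of these data known, so no list gives independent support. All 9 scaffold genes are described. From each partner list the genes that passed are named, or the 3 with the largest change where more passed, or the 2 with the largest change in floxed animals where none did, and P2ry12 was added after its values were seen. The striatal genes are named too, and the genes most like Dlgap3 and like the scaffold median by Pearson r. The values of 2 genes that this rule names are not reported here. In the main fit the p-values measure the spread between ratios of 8 arrays with 2 animals each, moderated by limma over all features. The number of arrays limits the precision. Over 24 pairs of animals with the same replicate number in other groups r ran from -0.25 to 0.53, with a median of 0.06. Over 72 pairs of other numbers it ran from -0.41 to 0.44, with a median of -0.02. Some same-number pairs also shared an array, so these values cannot decide whether the numbers pair animals. Alternatives covered background correction, normalization, the authors' table, dim probes, several probes of a gene, separate channels, sex and each array left out.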

Additional observations from a re-analysis of the deposited data

Results flagged for a closer look

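Among 36 groups of 4 levels, 4 held an animal far from the other 3, where chance gives about 1 in 20. The groups are 9 genes read in the same 16 animals, so they are not independent. The gap was weighed against the range of the group, so a small gap can be flagged. Floxed control 2 stood high for Shank1 at 9.33. Il6-deficient control 4 did so for Shank1 at 8.84, against 8.56 to 8.59 in the other animals of its group. Cryolesioned Il6-deficient animal 2 stood high for Shank2 at 9.39, and Il6-deficient control 1 stood low for Homer1 at 11.81.

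For 2 scaffold genes the ratio of Il6-deficient over floxed lay on opposite sides of 0 on all arrays of the control and lesion sides, and the difference was not tested. The side means were -0.29 and 0.60 for Dlgap3, and -0.22 and 0.38 for Shank2. Dlgap3 was selected on its interaction, which is the difference of these side means, so its pattern is a description only. For Shank2 the ratio on array 1 of each side lay near 0, at -0.04 and 0.05. The share of all features with this pattern is not given.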

How the results depend on the processing

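In floxed animals 9 of 9 scaffold genes stayed below 0 under all 19 alternatives, and their median ran from -0.51 to -0.27. In Il6-deficient animals the median ran from -0.28 to -0.09, and for genotype in controls from -0.10 to 0.07. Without Dlgap3, for which no call is given, the number past the threshold in floxed animals was 1 (Dlgap1). It was 0 with processed signals and 0 to 1 with an array left out. In Il6-deficient animals it was 1, but 0 with processed signals, 2 in the separate-channel fit, and 0 to 1 with an array left out. The number of all features called moved with the setting too. In floxed animals it was 896 in the main fit, 358 with median centring, 446 with processed signals and 57 to 2140 with an array left out. In Il6-deficient animals it was 803 in the main fit, 446 with processed signals and 3134 in the separate-channel fit. With an array left out it was 37 to 1187 there. The scaffold counts therefore cannot be read apart from the calls over all features. Dlgap1 was called in 15 of 19 alternatives in floxed and 12 of 19 in Il6-deficient animals; with processed signals its adjusted p in limma was 0.0573 and 0.0809. The Dlgap3 interaction stayed above 0, at 0.39 to 0.99. With a replicate block in the separate-channel fit, which pairs animals of the same number, it was 0.39. The block kept the Dlgap1 calls and ended the Dlg4 call of the separate-channel fit (-0.43, adjusted p = 0.0573 in limma).

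The sign turned in 30 of 608 fits of the other 8 genes, with 0 past the threshold. For the lesion in Il6-deficient animals Shank3 was -0.041 with median centring, -0.14 with sex as a term, -0.21 with separate channels and -0.28 with the block, Shank1 -0.17 and -0.23 with the latter pair, and Dlgap4 0.078 with sex. With an array left out Shank3 ran from -0.14 to 0.30 and Dlgap4 from -0.26 to 0.078. For genotype in controls Dlgap4 was 0.037, 0.13 and 0.16 with sex, separate channels and the block, and Dlg4 -0.0083 with probes averaged. With an array left out Dlgap4 ran from -0.28 to 0.046, Dlgap2 from -0.12 to 0.19 and Shank3 from -0.66 to 0.0023. For genotype after the lesion Shank3 was -0.035, -0.13 and -0.17, and Shank1 -0.089 and -0.13 with separate channels and the block. With an array left out Shank3 ran from -0.037 to 0.25, Dlgap4 from -0.002 to 0.34, Dlg4 from -0.11 to 0.29 and Dlgap2 from -0.081 to 0.26. The cause was not tested. The sex term and control-side array 2 left out span the same model, so they are not independent checks. Both called 560 of all features for the lesion in Il6-deficient animals, but 800 and 2140 in floxed animals. The probes used for these genes were well above background in all 16 animals, while 8 arrays limit the precision. Some further probes were much dimmer, such as those of Dlg4 (mean log2 intensity 7.19 and 7.18, against 11.96). The part of dimness in the changes of such probes was not tested.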
